A study of Homo sapiens with 40 samples.

Results

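The genes described here encode regulators of G protein signalling (RGS proteins). They were chosen by name: RGS2, RGS3, RGS4, RGS10, RGS12, RGS14, RGS16, RGS17, RGS19 and RGS20. Of these 10 genes, 9 had a row in the authors' table of 15788 genes, and RGS16 was not analysed here. The set was put together knowing that RGS2 and RGS4 moved in opposite directions, so that contrast is described and is no test of the set. The cells were BEAS-2B, an immortalised line of human bronchial epithelium, kept without serum overnight and then treated for 2 h.

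There were 10 groups of 4 libraries each. Roflumilast N-oxide (RNO) at 1 µM inhibits PDE4, the phosphodiesterases that break down cAMP. ONO-AE1-329 (ONO), which activates EP4, a receptor for prostaglandin E2, was given at 0.1 nM, 1 nM or 1 µM. Vilanterol, an agonist of the β2-adrenoceptor, was given at 100 nM. Each of the 4 agonist treatments was also given together with RNO, and the vehicle group had neither agonist nor RNO. All groups came from a single line, and the labels do not call the 4 replicates of a group separate cultures. The p-values below therefore measure the spread between these libraries, which may be technical. Levels are in normalised TPM, a transcript abundance scaled for length and library size and then adjusted between libraries, so they are per transcript length and can be set against each other between genes.

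RGS proteins bind the GTP-loaded α subunit of a heterotrimeric G protein and speed the hydrolysis of its GTP, which ends the signal of the receptor. EP4 and the β2-adrenoceptor act through Gs, which turns on adenylyl cyclase and raises cAMP, whereas RGS proteins act mainly on α subunits of the Gi and Gq classes. RGS2 is known in airway cells as a gene that cAMP-raising drugs induce and as a brake on the Gq signalling that contracts airway smooth muscle. The genes below fall into the R4 subfamily (RGS2, RGS3, RGS4), the R12 subfamily (RGS10, RGS12, RGS14) and the RZ subfamily (RGS17, RGS19, RGS20).

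Keratin genes of simple epithelium were abundant in the libraries, with KRT8 at a mean of 359 TPM and KRT18 at 292 TPM. The epithelial adhesion genes CDH1 (0.745 TPM) and EPCAM (0.265 TPM) lay under 1 TPM, while COL1A1, a collagen gene of fibroblasts, averaged 495 TPM. Of 8 epithelial markers, 5 had rows, and they summed to between 548 and 854 TPM over the libraries. Of 7 fibroblast markers, 5 had rows, and they summed to between 452 and 633 TPM. Beside COL1A1, PDGFRB averaged 55.7 TPM, COL1A2 9.44 TPM, COL3A1 1.5 TPM and PDGFRA 0.065 TPM, while DCN and LUM were not analysed here. Of 4 endothelial markers, 3 had rows and their summed level was at most 0.8 TPM. Of 6 leukocyte markers, 2 had rows, CD68 at 12.8 TPM and LYZ at 0.417 TPM. One library stood apart: the SD of its genes' deviations from their group means was 0.209 on the log2 scale in vehicle replicate 3, and 0.099 to 0.169 in the other 39 libraries. Vehicle replicate 3 carried the highest vehicle value of 6 of the 8 tested genes, RGS2, RGS3, RGS10, RGS14, RGS19 and RGS20.

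The promoters of RGS2 and RGS4, the genes that moved most, are shown to set side by side 2 genes with opposite directions. RefSeq (GRCh38.p14) gave windows of 250 bases before to 50 bases after an annotated start for 9 of the 10 named genes. The motif searched, on both strands, was the cAMP response element TGACGTCA, to which CREB binds, and its core TGACG, which is part of the full element. RGS2 has 1 window, at chr1:192808789-192809088 on the plus strand. RGS4 has 4 windows on the plus strand, of which the first (chr1:163068621-163068920) and the third (chr1:163069111-163069410) are given. Capitals mark a match to the core, read on the minus strand as CGTCA, or to the longer run that holds it.
RGS2 promoter: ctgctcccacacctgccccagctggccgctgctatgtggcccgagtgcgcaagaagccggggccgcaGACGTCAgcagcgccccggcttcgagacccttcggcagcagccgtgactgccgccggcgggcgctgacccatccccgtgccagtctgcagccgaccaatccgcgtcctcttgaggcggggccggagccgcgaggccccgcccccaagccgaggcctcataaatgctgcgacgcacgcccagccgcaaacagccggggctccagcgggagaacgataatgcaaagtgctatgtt
RGS4 promoter, window 1: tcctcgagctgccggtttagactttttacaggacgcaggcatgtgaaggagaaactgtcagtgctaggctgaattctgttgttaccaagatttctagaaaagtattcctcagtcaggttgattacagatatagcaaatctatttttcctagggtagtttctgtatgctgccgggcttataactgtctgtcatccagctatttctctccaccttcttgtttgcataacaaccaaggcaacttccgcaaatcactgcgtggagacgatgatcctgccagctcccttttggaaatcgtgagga
RGS4 promoter, window 3: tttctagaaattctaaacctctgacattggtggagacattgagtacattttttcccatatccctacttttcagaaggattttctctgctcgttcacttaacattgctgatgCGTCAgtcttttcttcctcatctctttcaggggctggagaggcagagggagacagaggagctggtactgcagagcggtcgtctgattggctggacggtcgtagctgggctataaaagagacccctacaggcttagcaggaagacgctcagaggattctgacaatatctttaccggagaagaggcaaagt
The RGS2 window held no full element but had GACGTCA at bases 68 to 74, which is TGACGTC on the minus strand and lacks 1 letter of the full element. The full element was found in 1.85% of 35116 promoter windows of the same length, the core in 24.6%, and TGACGTC in 3.45%. The 7-letter form was looked up after the RGS2 window had been read. Of the 4 RGS4 windows, the second and the third overlap and share the same CGTCA, and the first and the fourth had no core. The core was also found in 1 of 5 windows of RGS3 and 1 of 5 windows of RGS12, and in no window of RGS10, RGS14, RGS17 or RGS19. These matches describe letters and were not tested as binding sites.

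RGS2 was called higher than vehicle in every treatment group except the 2 given RNO alone and ONO 0.1 nM alone. RGS2 encodes a small R4 protein that acts mainly on Gq and can also bind adenylyl cyclase. Its 4 libraries, in the order of replicates 1 to 4, stood at 110, 73.7, 58.1 and 81.4 TPM with vilanterol, against 6.38, 6.22, 7.04 and 5.69 TPM with vehicle. The lowest vilanterol library was thus far above the highest vehicle library. With ONO alone, RGS2 stood at 8.04, 6.25, 5.02 and 6.12 TPM at 0.1 nM, at 20.5, 14.9, 11.2 and 15.9 TPM at 1 nM, and at 66.1, 47.6, 29.8 and 45.8 TPM at 1 µM. The 0.1 nM libraries spread on both sides of vehicle, and the 1 nM and 1 µM libraries were all above it. Against vehicle the ratio of means was 12.8 for vilanterol (log2 fold change 3.45, SE 0.22, limma adjusted p = 1.3e-14). It was 7.47 for ONO 1 µM (log2 fold change 2.67, adjusted p = 2.6e-11) and 2.46 for ONO 1 nM (1.15, adjusted p = 0.00228). At ONO 0.1 nM the difference was -0.01 on the log2 scale (95% interval -0.45 to 0.44, adjusted p = 0.997). In bulk RNA, more RGS2 per cell and more cells with RGS2 cannot be told apart.

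Adding RNO raised RGS2 above the agonist alone at the lower ONO doses. With RNO, RGS2 stood at 21.1, 18.1, 16.8 and 18.9 TPM with ONO 0.1 nM, against the 5.02 to 8.04 TPM of ONO 0.1 nM alone. The 2 groups did not overlap, and RGS2 was higher with RNO by a ratio of 2.94 (log2 fold change 1.43, SE 0.22, adjusted p = 0.000131). With ONO 1 nM + RNO the values were 38.6, 34.1, 24.6 and 39.7 TPM, against 11.2 to 20.5 TPM with ONO 1 nM alone, again without overlap. That ratio was 2.20 (log2 fold change 1.09, adjusted p = 0.0173). The call at 1 nM was lost on leaving out any of replicates 2, 3 and 4 of ONO 1 nM or replicates 2 and 4 of ONO 1 nM + RNO, with adjusted p between 0.0514 and 0.13, while the log2 fold change stayed between 0.95 and 1.11.

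At the higher levels of RGS2 no gain from RNO was called in the fit without the replicate block. ONO 1 µM + RNO gave 107, 69.1, 50.5 and 77.3 TPM, against 66.1, 47.6, 29.8 and 45.8 TPM with ONO 1 µM alone. The libraries of the groups overlapped, but in each replicate number the library with RNO was the higher. The log2 fold change was 0.67 (95% interval 0.23 to 1.12, adjusted p = 0.214). With the replicate number as a block in the fit the adjusted p was 0.0107, so there the gain was called. Vilanterol + RNO gave 108, 62.7, 54.5 and 74.6 TPM, against 58.1 to 110 TPM with vilanterol alone, and the libraries overlapped. There the log2 difference was -0.12 (95% interval -0.57 to 0.33, adjusted p = 1), so an increase by RNO of more than 0.33 on the log2 scale lay outside the interval.

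RNO on its own gave 8.47, 11.6, 13.1 and 12.4 TPM of RGS2, all above the highest vehicle library of 7.04 TPM. The log2 fold change was 0.74 (SE 0.22), the adjusted p was 0.178, and with the replicate block it was 0.00682. With RNO alone replicate 3 was the highest library, while in every group with an agonist replicate 3 was the lowest. The block takes the same shift in every group, so block values of RGS2 that involve RNO alone are limited by this. Against vehicle, RGS2 rose 2.96-fold with ONO 0.1 nM + RNO (adjusted p = 9.72e-05), 5.41-fold with ONO 1 nM + RNO, 12-fold with ONO 1 µM + RNO and 11.8-fold with vilanterol + RNO, and no library of these 4 groups overlapped with vehicle. Each agonist with RNO was also set against RNO alone. RGS2 rose 6.58-fold in vilanterol + RNO, 6.68-fold in ONO 1 µM + RNO and 3.01-fold in ONO 1 nM + RNO (largest adjusted p of the 3, 2.33e-05). For ONO 0.1 nM + RNO the ratio to RNO was 1.65 (log2 fold change 0.68, adjusted p = 0.28, 0.0117 with the block), and the libraries did not overlap.

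Whether the RNO effect on RGS2 differed with and without an agonist was tested as an interaction on the log2 scale. The estimates were 0.69 for ONO 0.1 nM (adjusted p = 0.661), 0.35 for ONO 1 nM (adjusted p = 0.712) and -0.07 for ONO 1 µM (adjusted p = 0.981). For vilanterol the estimate was -0.86 (95% interval -1.49 to -0.23), with an unadjusted p of 0.00915 and a limma adjusted p of 0.826. None was called, so the smaller RNO effect beside vilanterol did not pass the test of the difference.

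**Figure D1:**
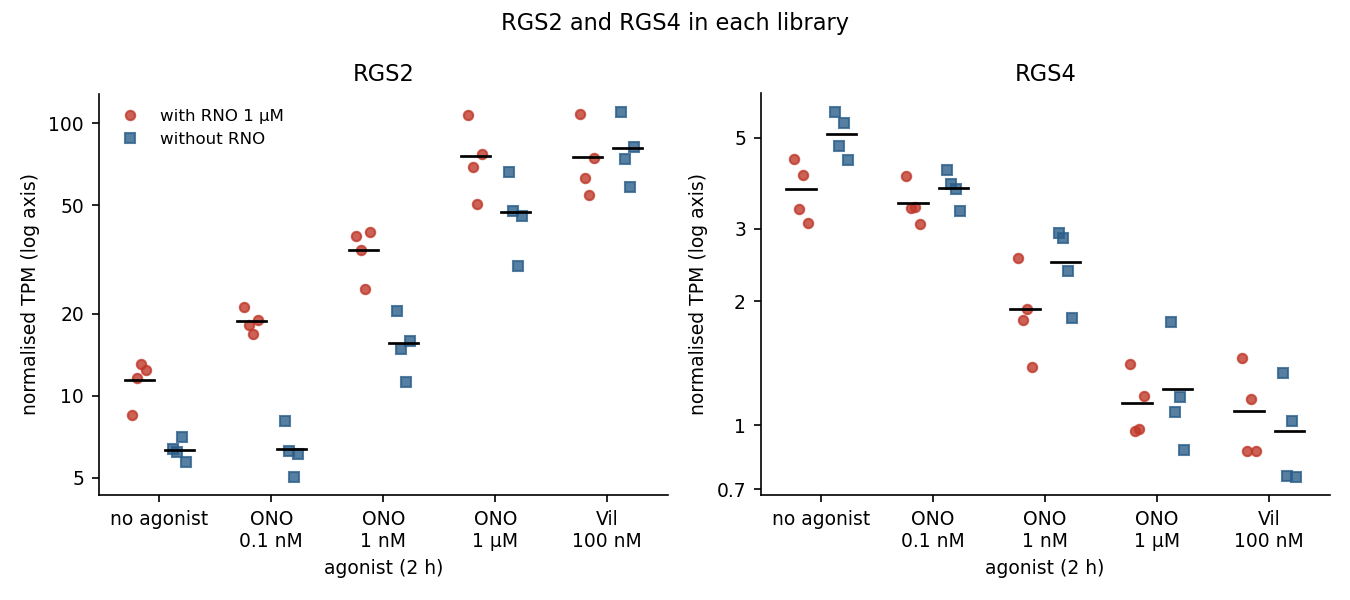
Level of RGS2 and RGS4 in each of the 40 libraries, in normalised TPM on a log axis, by agonist treatment with RNO left of without RNO. Points are libraries and bars are means of 4. RGS2 reaches 110 TPM in a vilanterol library while RGS4 averages 0.966 TPM in the same group.

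The groups can be put in order of their mean RGS2 level. From the top, vilanterol averaged 80.8 ± 21.8 TPM, ONO 1 µM + RNO 75.9 ± 23.4 TPM, vilanterol + RNO 74.8 ± 23.3 TPM and ONO 1 µM 47.3 ± 14.9 TPM (SD, n = 4 each). Then came ONO 1 nM + RNO at 34.3 ± 6.88 TPM, ONO 0.1 nM + RNO at 18.7 ± 1.83 TPM, ONO 1 nM at 15.6 ± 3.84 TPM and RNO at 11.4 ± 2.03 TPM. ONO 0.1 nM (6.36 ± 1.25 TPM) and vehicle (6.33 ± 0.556 TPM) closed the order. Libraries of neighbouring groups overlapped in 7 of the 9 steps; ONO 1 nM + RNO lay clear above ONO 0.1 nM + RNO, and RNO clear above ONO 0.1 nM.

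Replicate numbers left a mark on RGS2: replicate 1 was highest in 7 of 10 groups and replicate 3 lowest in 8 of 10. In vehicle and in RNO alone replicate 3 was instead the highest, at 7.04 and 13.1 TPM, and with RNO replicate 1 was the lowest, at 8.47 TPM. The block takes the same shift of a replicate number in every group, which vehicle and RNO alone did not show. Block values of RGS2 against vehicle or RNO alone are limited by this. With the replicate number as a block, the SE of an RGS2 difference was 0.16 in place of 0.22. Between the agonists, ONO 1 µM had 0.586 of the RGS2 level of vilanterol (log2 fold change -0.78, SE 0.22, adjusted p = 0.0562), with overlapping libraries. In each replicate number, however, the ONO 1 µM library lay below the vilanterol one. With the block the adjusted p was 0.00146, and with library weights it was 0.0271. It was 0.0177 without ONO 1 µM replicate 1 and 0.0303 without vilanterol replicate 3. Of the 8 fits that each left out 1 library of these groups, only those 2 called the difference. Over the 8 fits the adjusted p reached 0.259 and the log2 fold change lay between -0.95 and -0.58. Along the ONO doses, 1 nM exceeded 0.1 nM by a ratio of 2.45 (adjusted p = 0.00524) and 1 µM exceeded 1 nM by 3.03 (adjusted p = 1.55e-05). ONO 0.1 nM + RNO and ONO 1 nM alone differed in RGS2 by 0.27 on the log2 scale (95% interval -0.17 to 0.72, adjusted p = 1).

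RGS4 fell where RGS2 rose most. RGS4 is an R4 protein that acts on both Gi and Gq. It stood at 1.34, 0.751, 1.02 and 0.749 TPM with vilanterol, against 5.78, 4.77, 5.43 and 4.41 TPM with vehicle. With ONO alone it stood at 4.17, 3.87, 3.75 and 3.31 TPM at 0.1 nM, at 2.94, 2.85, 2.37 and 1.83 TPM at 1 nM, and at 1.79, 1.08, 1.17 and 0.871 TPM at 1 µM. No library of these 4 groups reached the lowest vehicle library. Against vehicle RGS4 had a ratio of 0.19 with vilanterol (log2 fold change -1.64, SE 0.13, adjusted p = 2.11e-12). The ratio was 0.241 with ONO 1 µM (-1.46, adjusted p = 1.04e-10) and 0.49 with ONO 1 nM (-0.81, adjusted p = 0.000177). At 0.1 nM the log2 fold change of -0.35 had an adjusted p of 0.804, and of 0.04 with the block. The scale is log2(TPM + 1), which understates the change of a gene at so low a level.

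RNO, alone or added to an agonist, moved RGS4 by between -0.37 and 0.09 on the log2 scale, and none of these differences was called. RNO alone gave 4.45, 3.35, 4.06 and 3.11 TPM of RGS4, with 1 library inside the vehicle range (log2 fold change -0.37, adjusted p = 0.265, 0.00135 with the block). ONO 0.1 nM + RNO gave 4.04, 3.37, 3.39 and 3.08 TPM, all below vehicle (log2 fold change -0.45, adjusted p = 0.086, 2.96e-05 with the block). RGS4 was lower than vehicle and called in the other 3 combinations. It stood at 2.56, 1.8, 1.92 and 1.38 TPM with ONO 1 nM + RNO (log2 fold change -1.07, adjusted p = 2.49e-07). ONO 1 µM + RNO gave 1.41, 0.97, 0.979 and 1.18 TPM (-1.51, adjusted p = 1.84e-11), and vilanterol + RNO gave 1.46, 0.864, 1.16 and 0.865 TPM (-1.55, adjusted p = 7.78e-12). Each of those 12 libraries was below every vehicle library.

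Set against the same agonist without RNO, RGS4 differed by -0.10, -0.26 and -0.05 on the log2 scale for ONO 0.1 nM, 1 nM and 1 µM, and by 0.09 for vilanterol. None was called, with adjusted p of 1 for each, and the 1 nM value had an adjusted p of 0.0376 with the block. Against RNO alone RGS4 fell with ONO 1 nM + RNO (log2 fold change -0.71, adjusted p = 0.000624), ONO 1 µM + RNO (-1.15) and vilanterol + RNO (-1.19), and the difference was -0.08 for ONO 0.1 nM + RNO (adjusted p = 1). The interactions were 0.27, 0.10 and 0.32 for the ONO doses from low to high and 0.45 for vilanterol (unadjusted p = 0.0169, adjusted p = 0.826).

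Mean RGS4 was lower at each higher ONO dose, and the step to 1 µM passed the test. At 1 µM its ratio to 1 nM was 0.492 (log2 fold change -0.65, adjusted p = 0.00123), with an adjusted p of 0.0571 in a fit of those 2 groups alone. At 1 nM its ratio to 0.1 nM was 0.661 (log2 fold change -0.46, adjusted p = 0.195, 4.79e-05 with the block), without overlap of libraries. ONO 1 µM and vilanterol differed in RGS4 by 0.17 on the log2 scale (95% interval -0.08 to 0.43, adjusted p = 0.786). ONO 0.1 nM + RNO had 1.39 times the RGS4 level of ONO 1 nM (log2 fold change 0.36, adjusted p = 1, 0.0142 with the block). RGS2, by contrast, overlapped between those 2 groups. RGS4 was highest in replicate 1 in all 10 groups and lowest in replicate 4 in 8 of 10.

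The ratio of RGS2 to RGS4 within a library ran from 1.1 in a vehicle library to 109 in a vilanterol library. It was lowest in vehicle, at 1.1, 1.3, 1.3 and 1.29 over the 4 libraries, and its medians at ONO 0.1 nM, 1 nM and 1 µM were 1.73, 6.09 and 40.6. With RNO beside them these medians were 5.29, 17.0 and 68.4, and RNO alone gave 3.34. Vilanterol had a median ratio of 90.0, between 56.8 and 109, and vilanterol + RNO 73.1, between 47.2 and 86.2. No ratio in any other group was as low as the highest vehicle ratio of 1.304.

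RGS3, the other R4 gene measured in this set, fell by a smaller amount and in most treatments. The RGS3 protein acts on Gi and Gq and is made in several lengths. It stood at 12.6, 12.7, 13.2 and 15.1 TPM with vilanterol, against 18.3, 19.6, 21.0 and 19.4 TPM with vehicle. ONO 1 µM gave 14.7, 12.6, 14.5 and 15.4 TPM, and ONO 1 µM + RNO gave 11.7, 12.5, 14.8 and 13.5 TPM. In all 9 treatment groups every library lay below the lowest vehicle library. RGS3 was called lower in 6 of the 9 comparisons: vilanterol (ratio 0.686, log2 fold change -0.51, adjusted p = 9.75e-06), vilanterol + RNO (0.68), ONO 1 µM + RNO (0.671), ONO 1 nM + RNO (0.687), ONO 1 µM (0.73) and ONO 1 nM (0.761). The ONO 1 nM call (log2 fold change -0.38, adjusted p = 0.00913) was lost without vehicle replicate 3 (adjusted p = 0.0563), without ONO 1 nM replicate 4 (0.0753) and in a fit of those 2 groups alone (0.131).

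For RNO alone the RGS3 ratio to vehicle was 0.795 (log2 fold change -0.31, adjusted p = 0.101, 0.0112 with the block). For ONO 0.1 nM + RNO it was 0.806 (-0.30, adjusted p = 0.0644, 0.00994 with the block). In that group replicate 4 was at 18.1 TPM and the other 3 libraries between 14.9 and 15.1 TPM, and without replicate 4 the adjusted p was 0.0188. That was the only call among the 8 fits that each left out 1 library of these groups, and the adjusted p reached 0.259 among them. For ONO 0.1 nM the ratio was 0.86 (log2 fold change -0.20, adjusted p = 0.804). RGS3 was not called in any comparison of an agonist with RNO against that agonist alone, with log2 differences between -0.14 and -0.01. Against RNO alone, ONO 1 µM + RNO differed by -0.23 (adjusted p = 0.0577, 0.0184 with the block, 0.048 without RNO replicate 2 and 0.0261 without ONO 1 µM + RNO replicate 3). Only those 2 of the 8 fits that each left out 1 library called it, and the adjusted p reached 0.201 among the 8. Vilanterol + RNO differed from RNO by -0.22 in RGS3 (adjusted p = 0.0673), and by -0.28 without its own replicate 3 (adjusted p = 0.0226). This was the only call among 8 such fits, and the adjusted p reached 0.305 among them.

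**Figure D2:**
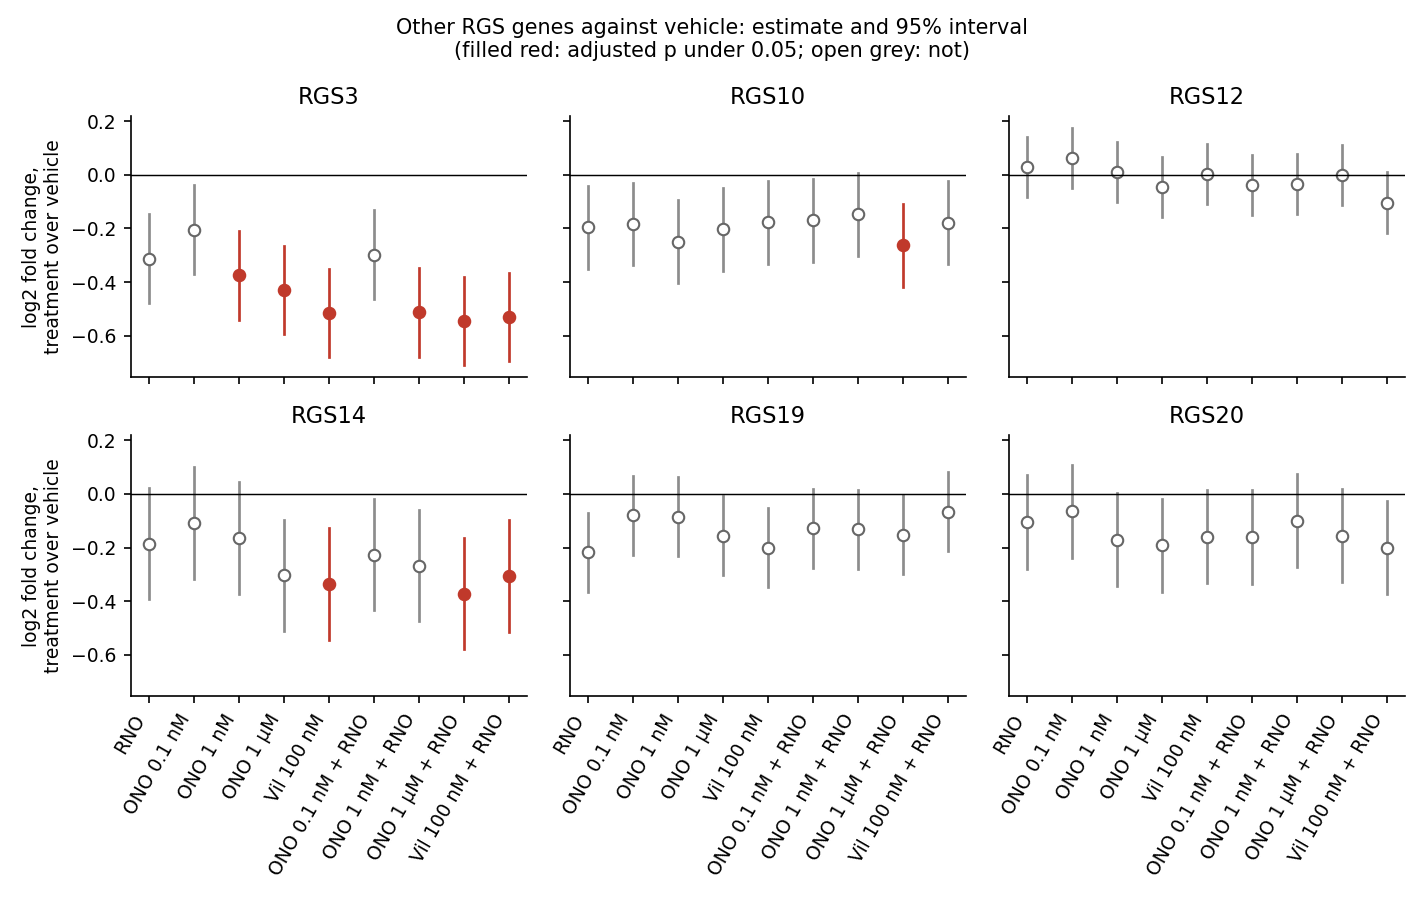
Log2 fold change against vehicle, on the log2(TPM + 1) scale, of the tested RGS genes other than RGS2 and RGS4 in the 9 treatments. Points are estimates with 95% intervals, and filled points passed the limma test. RGS3 lies below 0 in all 9 treatments, and passed in 6.

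Of the R12 genes, RGS14 was called lower in 3 of the 9 comparisons with vehicle, RGS10 in 1 and RGS12 in none. RGS10, a small protein that acts on Gi and is best known as a curb on inflammatory activation of microglia and macrophages, was the most abundant of the set in vehicle cells. It stood at 29.96, 29.4, 33.7 and 30.03 TPM with ONO 1 µM + RNO, against 35.6, 35.3, 44.0 and 34.2 TPM with vehicle. The groups did not overlap, and vehicle replicate 3 stood well above the other 3 vehicle libraries. This was the only comparison in which RGS10 was called (ratio 0.826, log2 fold change -0.26, adjusted p = 0.0135), and without vehicle replicate 3 the difference was -0.18 with an adjusted p of 0.113. The other 8 treatments had RGS10 between -0.25 and -0.15 on the log2 scale against vehicle. With the block, ONO 1 nM (adjusted p = 0.0259) and ONO 1 µM (0.0452) also passed, and ONO 1 µM passed without its own replicate 3 (0.022). That was 1 of the 8 fits that each left out 1 library of ONO 1 µM or vehicle, and no other of them called RGS10. Over the 8 fits the adjusted p reached 0.485 and the log2 fold change lay between -0.28 and -0.12.

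RGS14, which carries a Ras-binding region and a GoLoco motif that holds Gi in its GDP form, was near 2 TPM. It stood at 2.04, 1.69, 1.44 and 1.81 TPM with vilanterol, against 2.56, 2.09, 2.94 and 2.28 TPM with vehicle. The vehicle libraries lay above the vilanterol ones, with the lowest vehicle value close to the highest vilanterol value. RGS14 was called lower with vilanterol (ratio 0.707, log2 fold change -0.34, adjusted p = 0.0185), ONO 1 µM + RNO (0.681, -0.37, adjusted p = 0.00977) and vilanterol + RNO (0.731, -0.31, adjusted p = 0.0324). Without vehicle replicate 3 these adjusted p were 0.0944, 0.0589 and 0.142, so none of the 3 was called. The vilanterol call was also lost without vilanterol replicate 3 (0.0823), and that of vilanterol + RNO without vehicle replicate 1 or replicate 1, 2 or 3 of its own group (0.0584 to 0.0965). ONO 1 µM alone had a log2 fold change of -0.30 in RGS14 (adjusted p = 0.0678), which passed with the block (0.0232), without vehicle replicate 2 (0.0342) and without its own replicate 4 (0.0458). Of the 8 fits that each left out 1 library of these groups, only those 2 called it. Over the 8 fits the adjusted p reached 0.265 and the log2 fold change lay between -0.36 and -0.24.

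RGS12, a large protein with a GoLoco motif like that of RGS14, had the smallest ratio of highest to lowest group mean in the set (1.14), with group means between 6.01 and 6.86 TPM. It stood at 5.57, 6.31, 5.78 and 6.39 TPM with vilanterol + RNO, against 6.08, 7.23, 6.11 and 6.74 TPM with vehicle. The groups overlapped, and the log2 fold change was -0.10 (adjusted p = 0.204, 0.0332 with the block). In the other 8 comparisons with vehicle RGS12 differed by between -0.04 and 0.06 on the log2 scale.

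Of the RZ genes, RGS19 (also called GAIP, which acts on Gi) was between 14.3 and 16.8 TPM in the group means and RGS20 (also called RGSZ1, which acts on Gz) between 10.2 and 11.9 TPM. RGS19 stood at 12.5, 14.7, 15.5 and 15.3 TPM with vilanterol, against 14.5, 16.5, 19.0 and 17.2 TPM with vehicle. The libraries overlapped, and the adjusted p was 0.0504 (log2 fold change -0.20), 0.0147 with the block, 0.00957 without vehicle replicate 1, 0.0391 without vilanterol replicate 3 and 0.0443 without vilanterol replicate 4. Of the 8 fits that each left out 1 library of these groups, only those 3 called RGS19. Over the 8 fits the adjusted p reached 0.239 and the log2 fold change lay between -0.26 and -0.14. For RNO alone RGS19 had a log2 fold change of -0.22 (adjusted p = 0.241, 0.0416 with the block). RGS20 was not called in any comparison of all libraries: with vilanterol it stood at 12.1, 9.57, 10.1 and 10.3 TPM, against 11.95, 9.87, 15.2 and 10.8 TPM with vehicle, and vehicle replicate 3 was again the high library. Without vehicle replicate 2, the lowest vehicle library, RGS20 was called lower with ONO 1 µM (adjusted p = 0.0439), vilanterol (0.045) and vilanterol + RNO (0.0184). For each of these comparisons that was the only call among 8 fits that each left out 1 library. Among those fits the adjusted p reached 0.737, 0.784 and 0.554, and the log2 fold change came as near to no change as -0.08, -0.05 and -0.09. RGS17, also called RGSZ2, averaged 0.558 TPM over the 40 libraries, with single values between 0.22 and 1.12 TPM. It lay under the mean of 1 TPM required for testing, and in a fit without that requirement no comparison called it (smallest unadjusted p 0.0192, adjusted p 0.112, for vilanterol + RNO against RNO).

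Counted over the set, 8 of the 9 measured genes were tested, and the counts below are those with adjusted p under 0.05 in a fit over 12591 genes. With vilanterol 1 rose and 3 fell, where 9.69% of all tested genes rose and 7.97% fell. With vilanterol + RNO 1 rose and 3 fell, against 10% and 8.44% of all tested genes, and with ONO 1 µM + RNO 1 rose and 4 fell, against 8.92% and 6.86%. With ONO 1 µM 1 rose and 2 fell, against 4.19% and 3.02% of all tested genes. With ONO 1 nM + RNO 1 rose and 2 fell, against 2.18% and 1.27%, and with ONO 1 nM 1 rose and 2 fell, against 0.651% and 0.357%. With ONO 0.1 nM + RNO 1 rose, against 0.905% of all tested genes. The gene that rose was RGS2 each time.

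None of the 8 was called with RNO alone (0.238% of all tested genes; 5 of the 8 at an unadjusted p under 0.05) or with ONO 0.1 nM (0%; 3 of the 8 at an unadjusted p under 0.05). The 23 calls are 31.9% of the 72 tests of the set against vehicle, and 7.21% of all tests were called in those 9 comparisons. RGS2 supplied 7 of the 23 and RGS4 6, and the opposite directions of those 2 genes were known when the set was chosen. The other 6 tested genes had 10 calls in 54 tests, or 18.5%. Most of these calls were in RGS3, the rest in RGS14 and RGS10, and none in RGS12, RGS19 or RGS20. Without vehicle replicate 3 the RGS14 and RGS10 calls and that of RGS3 at ONO 1 nM were lost. The remaining RGS3 calls were kept. The comparisons share the vehicle libraries, so their calls are not independent. Counted by libraries that did not overlap with vehicle, 5 of the 8 genes stood apart with vilanterol (14.9% of all tested genes), 5 with ONO 1 µM + RNO (14.2%) and 3 with vilanterol + RNO (14.8%). With ONO 1 µM 3 stood apart (8.38%), with ONO 1 nM + RNO 3 (5.92%), with ONO 1 nM 4 (4.22%) and with ONO 0.1 nM + RNO 3 (3.96%). With RNO alone 2 stood apart, RGS2 and RGS3 (3.21%), and with ONO 0.1 nM 2, RGS3 and RGS4 (1.37%). The median log2 fold change of the 8 genes against vehicle lay between -0.21 and -0.09 over the 9 treatments, and that of all tested genes between -0.01 and 0.00. Vehicle was the highest group for 6 of the 8 tested genes: RGS3, RGS4, RGS10, RGS14, RGS19 and RGS20. For each of these except RGS4, vehicle replicate 3 was the highest vehicle library. For RGS20 the remaining vehicle libraries stood at 11.95, 9.87 and 10.8 TPM, while ONO 0.1 nM averaged 11.2 TPM. The calls against vehicle that came only with the block in RGS10, RGS12, RGS14, RGS19 and, at ONO 0.1 nM, RGS4 were lost in a blocked fit that omitted vehicle replicate 3, with adjusted p between 0.05004 for RGS12 and 0.232 for RGS19.

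Adding RNO to an agonist called 1 gene, RGS2, with ONO 0.1 nM (0.723% of all tested genes) and 1, RGS2 again, with ONO 1 nM (0.238%). It called none with ONO 1 µM (0.604%; 1 of 8 at an unadjusted p under 0.05) or vilanterol (0%; 0 of 8). Against RNO alone, RGS2 rose and RGS4 fell with ONO 1 nM + RNO (1.68%), ONO 1 µM + RNO (12%) and vilanterol + RNO (15.5%), and none was called with ONO 0.1 nM + RNO (0.627%; 1 of 8 at an unadjusted p under 0.05). The 4 interactions called none of the 8 with limma, against 0.135% of all tested genes for ONO 0.1 nM, 0% for 1 nM, 0.0635% for 1 µM and 0.00794% for vilanterol; 7 of those 32 tests had an unadjusted p under 0.05. Between agonists, none was called for ONO 1 µM against vilanterol (2.14%; 1 of 8 at an unadjusted p under 0.05) or for ONO 0.1 nM + RNO against ONO 1 nM (0%; 1 of 8). RGS2 rose at ONO 1 nM relative to 0.1 nM (0.318%), and at 1 µM relative to 1 nM RGS2 rose and RGS4 fell (2.11%).

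**Figure D3:**
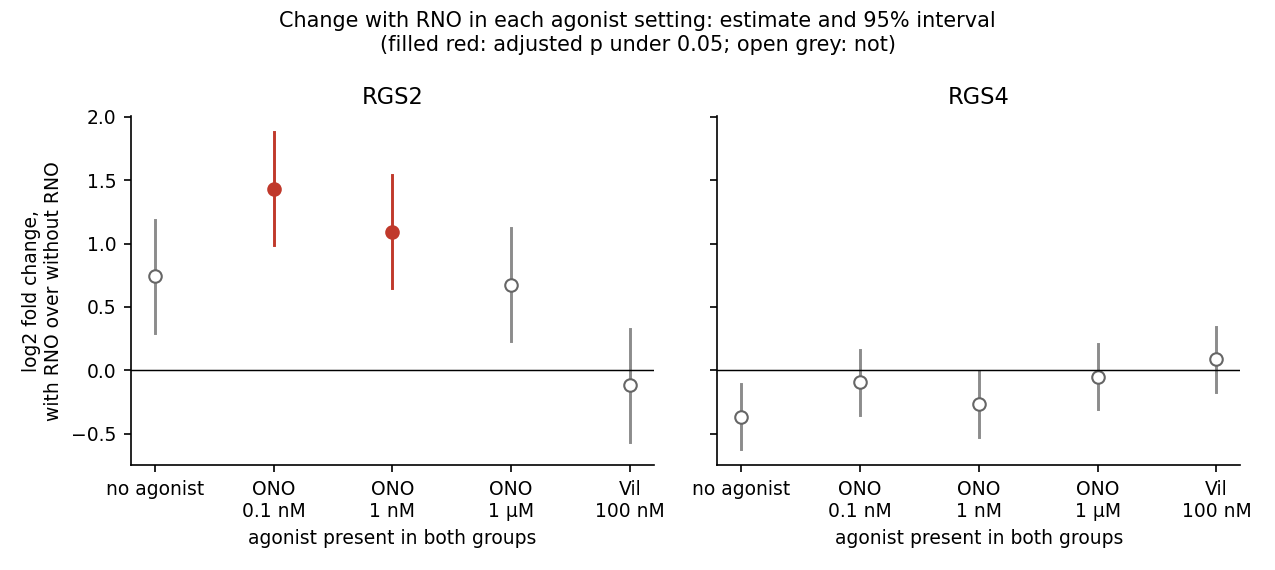
Log2 fold change, on the log2(TPM + 1) scale with 95% intervals, that RNO made in RGS2 and RGS4 without an agonist and beside each agonist treatment. The RGS2 estimate runs from 1.43 beside ONO 0.1 nM to -0.12 beside vilanterol, and the RGS4 estimates lie between -0.37 and 0.09.

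The 9 measured genes summed to 162 ± 23.1 TPM with vilanterol, against 107 ± 9.82 TPM with vehicle (SD, n = 4 each). Without RGS2 the other 8 genes summed to 80.8 ± 2.31 TPM with vilanterol, against 100 ± 9.35 TPM with vehicle. RGS2 made up 49.3 ± 6.14% of the sum with vilanterol, against 5.95 ± 0.289% with vehicle. Its share was 6.61 ± 1.36%, 15.6 ± 3.42% and 36.1 ± 8.03% at ONO 0.1 nM, 1 nM and 1 µM. With RNO beside those doses the share was 17.8 ± 1.93%, 28.8 ± 4.29% and 48.1 ± 8.35%, and with RNO alone 11.6 ± 2%. RGS10 held 20.5 ± 2.06% with vilanterol, against 34.9 ± 1.05% with vehicle, while its own level averaged 32.7 TPM with vilanterol and 37.3 TPM with vehicle.

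**Figure D4:**
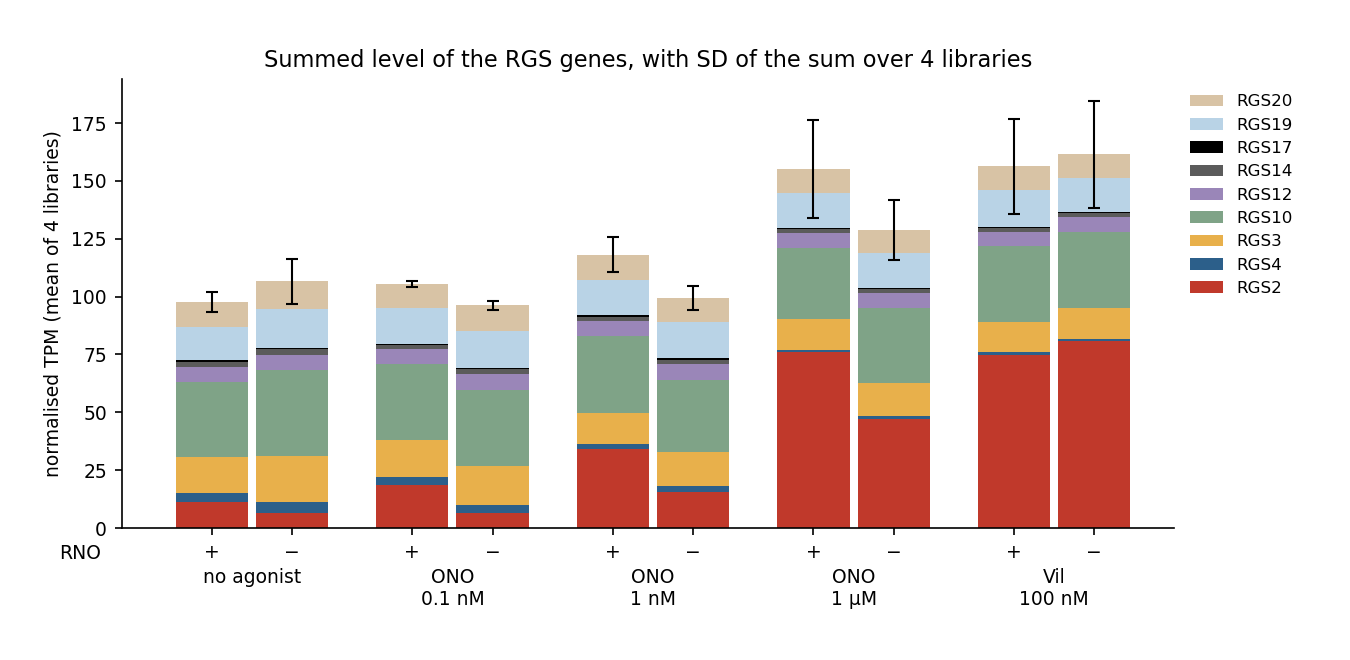
Summed level of the 9 measured RGS genes, in normalised TPM, as stacked means of 4 libraries per group, with RNO left of without RNO. Error bars are the SD of the sum over 4 libraries. The sum is 162 TPM with vilanterol and 107 TPM with vehicle, of which RGS2 makes up a mean of 80.8 TPM and 6.33 TPM.

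Other genes of the pathway were counted over the same 9 comparisons with vehicle, in which between 0% and 18.4% of all tested genes were called, and 7.21% of all tests together. Of 15 listed α subunit genes, 13 had rows and 9 were tested; the 1 called was GNAI1, a Gi subunit, higher with vilanterol + RNO (38.1 TPM, against 36.02 TPM with vehicle; log2 fold change 0.08, adjusted p = 0.0456). Of 17 listed β and γ subunit genes, 11 were tested, and the 1 called was GNB4, higher with ONO 1 µM + RNO (27.5 TPM, against 25.4 TPM with vehicle; log2 fold change 0.11, adjusted p = 0.0326). None of the 6 tested genes of receptor kinases and arrestins, which switch receptors off from the inside of the cell, and none of the 2 tested phospholipase C β genes, effectors of Gq, was called against vehicle in any of the 9 comparisons. Of the 5 tested GoLoco and RIC8 genes, GPSM2 was lower with vilanterol (log2 fold change -0.17, adjusted p = 0.022) and vilanterol + RNO (-0.21, adjusted p = 0.0042). RIC8A, a chaperone of α subunits, was lower with vilanterol + RNO (-0.12, adjusted p = 0.0369).

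Of 12 tested genes with other RGS or RGS-like domains, 3 were called in at least 1 of those comparisons, where the share of all tested genes called was 7.21% with ONO 1 µM, 15.8% with ONO 1 µM + RNO, 17.7% with vilanterol and 18.4% with vilanterol + RNO. RGS7, an R7 protein that pairs with the β subunit GNB5, averaged 6.52 TPM with vilanterol and 6.11 TPM with vilanterol + RNO, against 8.48 TPM with vehicle (log2 fold changes -0.33 and -0.41, adjusted p = 0.00378 and 0.000372). It was also lower with ONO 1 µM + RNO (-0.28, adjusted p = 0.0183). AXIN1, a scaffold of the Wnt pathway, was lower with ONO 1 µM and with vilanterol (-0.14 each, adjusted p = 0.048 and 0.0238). SNX25, a sorting nexin, was higher with ONO 1 µM + RNO (0.18, adjusted p = 0.0216) and vilanterol + RNO (0.17, adjusted p = 0.0262). Over the 9 comparisons the median log2 fold change of each of the 6 lists lay between -0.09 and 0.09.

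The genes whose pattern was most like that of RGS2 were sought by Pearson's r over the 10 group means on the log2 scale, among the 224 tested genes whose highest and lowest group means differed by at least 1. They were PDE4D (r = 0.997), DDIT4 (0.995), ZNF331 (0.995), the entry LOC102724428/SIK1 (0.994) and CD200 (0.994). PDE4D encodes a PDE4 enzyme, the class of enzyme that RNO inhibits, and SIK1 a salt-inducible kinase. For RGS4 they were DUSP6 (0.987), JUN (0.977), KLF10 (0.969), FOSL1 (0.969) and IER3 (0.967). DUSP6 encodes a phosphatase of the ERK kinases, and JUN and FOSL1 encode subunits of the AP-1 transcription factor. Between RGS2 and RGS4 themselves r was -0.964. All genes share the same 40 libraries, so these values describe likeness across the 10 groups and carry no p.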

How the data were processed

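Directional poly(A) libraries were sequenced on an Illumina NextSeq with 2 kits, per the labels' protocols. The labels do not tie libraries to kits, so no within-kit values could be computed. Per the submitters' processing notes, the tools were kallisto, sleuth and bcl2fastq 2.18.0.12 and the builds hg19 and GRCh37. For kallisto and sleuth, the version is not given in the sources used here. A normalised signal, TPM adjusted between libraries, was deposited by the authors for 15788 genes in 40 libraries. Column totals ranged between 956888 and 1091466, and column medians between 8.47 and 9.11 TPM. The highest total was that of vehicle replicate 3, and the next highest was 1013360, in ONO 1 µM replicate 4. TPM keeps no depth, so depth is unknown and no counting interval is given. The values had been assumed to be plain TPM, and unequal totals showed a further adjustment; the log-scale test was kept.

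On the log2(value + 1) scale, limma 3.58.1 tested 12591 genes, those averaging 1 TPM or more (R version 4.3.3; files were read with data.table, version 1.17.8). It used 1 mean per group, all 40 libraries, 30 residual degrees of freedom, moderated variances and an intensity trend. Calls required an adjusted p under 0.05 (Benjamini-Hochberg, within each of 25 comparisons in 5 families). All adjusted p-values are limma's, and p-values are 2-sided. Folds are ratios of mean TPM. The fit was tested on simulated data with independent libraries. Those data held no shift shared by a replicate number, so that feature of the real libraries was not covered.

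Groups and replicate numbers come from the labels. Libraries with the same number deviated together: over the 45 pairs of groups the mean correlation of their deviations was 0.281, against -0.0928 for different numbers, and all 40 libraries correlated best with their own number. Every same-numbered pair correlated above 0.1 in 39 of 45 pairs of groups, and in 20 of the 25 comparisons. For those 20, a value with the replicate number as a block is given where it changed a call.

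All RGS genes of the set may be named, with their calls and the values the results turn on; genes of the 6 pathway lists are named if called against vehicle at least once. The members, lists and tests were chosen with earlier results of these data known. Promoter sequences are RefSeq's, build GRCh38.p14, while the expression values rest on the authors' build; no coordinate was converted. RGS20 is named without a promoter. Alternatives were another pseudocount, no filter, the block, equal library totals, library weights, only the groups compared, and leaving out each library.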

Additional observations from a re-analysis of the deposited data

Results flagged for a closer look

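In 4 of the 90 sets of 4 libraries (9 genes by 10 groups), 1 library lay far from the other 3, with a gap to the nearest of them over 0.829 of the range. Chance alone flags about 1 in 20 sets, which is 4.5 of 90. RGS3 was at 18.13 TPM in replicate 4 of ONO 0.1 nM + RNO, with the other 3 libraries between 14.9 and 15.1 TPM. RGS10 was at 33.72 TPM in replicate 3 of ONO 1 µM + RNO, with the others between 29.4 and 30.03 TPM. RGS20 was at 11.12 TPM in that same library, with the others at 10.3 TPM each. RGS10 was at 44.02 TPM in vehicle replicate 3, with the others between 34.2 and 35.6 TPM. The part of sample handling or sequencing kit in these values was not tested.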

How the results depend on the processing

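No difference called in the fit reported changed sign under any alternative run. Of the differences not called, 44 had another sign under at least 1 alternative; the largest of these was 0.14 in size on the log2 scale. With the replicate block the calls among the RGS genes numbered 35 against vehicle (23 without it), 4 for an agonist with RNO against that agonist (2), 10 against RNO (6), 1 interaction (0) and 6 between agonist treatments (3). With the replicate block and without vehicle replicate 3 these were 27, 4, 11, 1 and 6. The interaction called with the block was RGS4 beside vilanterol (0.45, adjusted p = 0.0214), and without vehicle replicate 3 it was RGS2 beside vilanterol (-1.02, adjusted p = 0.0357); in those comparisons not every same-numbered pair correlated above 0.1. The same holds for vilanterol + RNO against RNO, where the block called RGS3 (adjusted p = 0.0238) and RGS12 (0.00732). The block changed no other call than these and those given with each gene. With only the groups compared in the fit, an agonist with RNO against that agonist had 1 call, since RGS2 at ONO 1 nM had an adjusted p of 0.097; fewer libraries give fewer degrees of freedom. Leaving out each library in turn gave 18 to 27, 1 to 2, 6 to 8, 0 to 0 and 3 to 4 calls in the same order of families. A pseudocount of 0.1, no filter, equal library totals and library weights kept each of these counts within 1.5 times. With library weights, however, the calls against vehicle numbered 19. The RGS10 call and every RGS14 call against vehicle were lost there (limma adjusted p between 0.0653 and 0.143). Those same RGS10 and RGS14 calls were also lost with only the groups compared (limma adjusted p between 0.0711 and 0.1125). Of the single-gene values, 1824 kept their side of the threshold on leaving out a library, 16 gained a call and 16 lost one; under the other alternatives these numbers were 1348, 40 and 12. Group means lay between 0.966 and 5.10 TPM for RGS4 and between 1.68 and 2.47 TPM for RGS14. At such low levels the unknown depth limits what can be said of small differences.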
